A study of Drosophila melanogaster with 2 samples.

Results

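The Rab genes of Drosophila melanogaster were examined for binding of Jra, the fly Jun protein, in wandering larvae. Members were the protein-coding genes whose symbol starts with Rab followed by a digit or X in the Ensembl gene models. The rule found 36 genes among 13945 protein-coding genes on the chromosome arms. Of the 36, 33 encode Rab GTPases. The other 3 (Rab3-GEF, Rab3-GAP and Rab3GAP1) encode regulators of the GTPase Rab3, so the name Rab GTPase does not hold for them. The binding data came from ChIP-seq with an anti-GFP antibody on a single transgenic line that carried Jra with GFP at its C terminus. Whole animals of the third instar at the wandering stage were used, both sexes together. Each value therefore mixes all tissues of the larva, and binding in fewer cells and less binding per cell cannot be told apart. The series held 1 group with 2 biological replicates, labelled 1 and 3, and no second condition, so no comparison of conditions was possible. The control libraries were not analysed here, and read depth is unknown because the files are peak lists without read counts.

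Rab proteins are small GTPases that sit on membranes when loaded with GTP and recruit effectors that move, tether and fuse vesicles. Each membrane step of the cell has its own Rab proteins. Exchange factors load them, GTPase activating proteins switch them off, and an escort protein and the GDP dissociation inhibitor carry them between cytosol and membrane. Jra pairs with the Fos protein kay to form the AP-1 transcription factor, which acts downstream of JNK and binds the letters TGACTCA. The DNA replication-related element (DRE, letters TATCGATA) is a promoter sequence bound by the factor DREF and is common at fly housekeeping genes.

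Summit windows of Rab gene peaks are shown here to let the AP-1 and DRE letters be read in their setting. Each window spans 101 bases centred on the summit of a peak of the authors' reproducible (IDR) list. The letters were read from the RefSeq genome sequence of Release 6 (dm6), 5′ to 3′ on the strand of the gene. The 11 windows are every Rab peak with AP-1 or DRE letters within 50 bp of its summit on the arms shown, 10 in all, and the strongest peak of Rab11, which holds neither. Capitals mark TGACTCA (AP-1) and TATCGATA (DRE).
Rab6 promoter, AP-1 and DRE (chr2L:12109088-12109188, minus strand): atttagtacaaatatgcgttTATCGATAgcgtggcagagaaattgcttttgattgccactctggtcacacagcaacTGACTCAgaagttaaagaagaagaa
Rab8 promoter, DRE (chr3L:19871048-19871148, minus strand): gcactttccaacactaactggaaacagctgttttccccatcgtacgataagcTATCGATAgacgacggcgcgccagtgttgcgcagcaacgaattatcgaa
Rab30 promoter, DRE (chr2L:7032579-7032679, minus strand): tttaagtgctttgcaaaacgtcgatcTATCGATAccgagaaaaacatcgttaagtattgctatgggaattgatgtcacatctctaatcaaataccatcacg
Rab7 peak 1, promoter, DRE (chr3R:23992949-23993049, plus strand): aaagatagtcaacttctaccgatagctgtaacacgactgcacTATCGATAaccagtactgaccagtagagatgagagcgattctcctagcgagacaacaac
Rab35 promoter, DRE (chrX:20159864-20159964, minus strand): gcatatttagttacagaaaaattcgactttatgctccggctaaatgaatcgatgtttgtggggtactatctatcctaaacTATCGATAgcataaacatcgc
Rab7 peak 2, intron, AP-1 (chr3R:23993580-23993680, plus strand): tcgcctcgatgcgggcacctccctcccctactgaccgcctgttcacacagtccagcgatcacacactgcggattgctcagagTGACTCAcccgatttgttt
Rab5 promoter, AP-1 (chr2L:2365223-2365323, minus strand): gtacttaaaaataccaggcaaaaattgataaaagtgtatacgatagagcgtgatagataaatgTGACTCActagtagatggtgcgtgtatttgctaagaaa
Rab19 intron, AP-1 (chr3L:8297448-8297548, plus strand): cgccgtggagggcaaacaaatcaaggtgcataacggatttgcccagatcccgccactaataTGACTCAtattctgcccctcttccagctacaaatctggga
Rab11 peak 2, intron, AP-1 (chr3R:21112834-21112934, plus strand): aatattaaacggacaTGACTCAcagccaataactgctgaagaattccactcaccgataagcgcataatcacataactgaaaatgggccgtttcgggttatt
Rab11 peak 3, intron, AP-1 (chr3R:21113060-21113160, plus strand): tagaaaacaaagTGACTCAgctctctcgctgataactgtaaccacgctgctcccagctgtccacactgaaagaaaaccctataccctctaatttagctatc
Rab11 peak 1, promoter, neither (chr3R:21111346-21111446, plus strand): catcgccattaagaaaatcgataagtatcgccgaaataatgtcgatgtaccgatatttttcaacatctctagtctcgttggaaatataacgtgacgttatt

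Jra summits lay within 1000 bp of a transcription start site at 19 of the 36 Rab genes. They were at the genes for Rab1, Rab2, Rab6, Rab19 and Rab30 of the ER and Golgi, Rab5 and Rab21 of early endosomes, and Rab4, Rab11, Rab14 and Rab35 of recycling. They were also at Rab7 and Rab39 of late endosomes, Rab8 and Rab10 of secretion, Rab23, Rab40, RabX1 and the regulator Rab3GAP1. A gene was counted when a summit of the IDR list lay in its body or within 1000 bp of one of its transcription start sites (TSS). This held for 19 of 36 genes (52.8%, Wilson 95% interval 37.0 to 68.0%), against 22.5% of all protein-coding genes (3144 of 13945). Among the 33 GTPase genes the count was 18 (54.5%, 38.0 to 70.2%). Summits within 1000 bp of a TSS gave the same 19 Rab genes, against 20.4% of all protein-coding genes (2839). Within 250 bp of a TSS the count was 14 Rab genes, against 15.0%. At Rab21, Rab4 and Rab39 the only summit lay nearer to the TSS of another gene. When the nearest TSS had to be the gene's own, 16 Rab genes remained, against 16.1% of all protein-coding genes. The intervals cover counting error over genes only, and no test was made, because the family was chosen as a whole with earlier results known.

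The longer pooled list, which includes background regions, held a summit at 25 of the 36 genes (69.4%), against 52.7% of all protein-coding genes (7350). For the 33 GTPase genes it was 23 (69.7%). Genes with an IDR summit had a median length of 3317 bp, against 1435 bp for the 17 Rab genes without one, and the part of length in these counts was not tested.

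**Figure D1:**
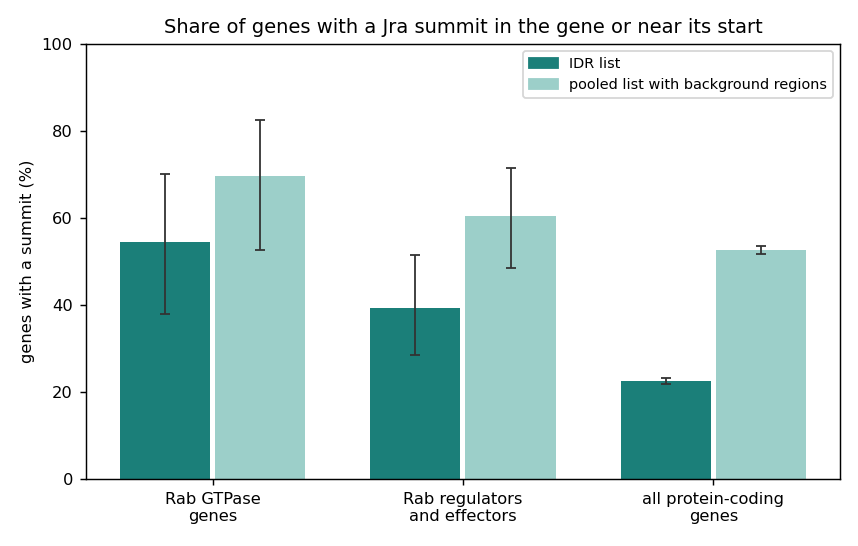
Share of genes (percent, vertical axis) with a summit in the gene body or within 1000 bp of a TSS, for the 33 Rab GTPase genes, 66 genes of Rab regulators and effectors, and 13945 protein-coding genes. Dark bars are the IDR list, light bars the pooled list, and lines are Wilson 95% intervals; the IDR shares are 54.5%, 39.4% and 22.5%.

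The 23 Rab peaks were of middling strength and lay close to the start sites. Peak signal, the value the authors' caller gave each region, ran from 72.7 to 187 over the 23 peaks with a median of 100.2. Over the 3803 nuclear IDR peaks it ran from 70.6 to 1184 with a median of 104. Of the 23 peaks, 10 were among the 1901 strongest. Their summits lay a median of 97 bp from a TSS of the gene, 14 within 150 bp and 8 within 50 bp. Of the 23, 15 lay upstream of the start, 7 downstream and 1 on it. A total of 21 were within 1000 bp of a TSS of the Rab gene itself. Of all nuclear IDR peaks, 64.1% (2437 of 3803) were that near to a TSS of any protein-coding gene. A Rab peak was counted only with its summit in the gene body or within 1000 bp of a TSS. Nearness to the start is thus partly set by the rule, and these shares cannot be compared directly. Most regions had the same width of 440 bp with the summit in the middle, so the width does not tell how finely a summit was placed. The lists give no error for summit positions, so short distances are approximate.

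Signals are on a separate scale in each list, so ranks are given beside them. For the IDR list they are ranks among 3803 nuclear peaks, and for the replicate lists among 30000 regions of replicate 1 and 29971 of replicate 3, background regions included.

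Of the 6 ER and Golgi genes, 5 had an IDR summit and all 6 had a region of the pooled list. Rab1, which acts in transport between ER and Golgi, had a summit 36 bp upstream of its TSS (3R 21269096). Its signal was 145 (rank 990), with 105 in replicate 1 (rank 624) and 48.9 in replicate 3 (rank 1997). The Rab1 peak thus stood higher in replicate 1. Rab2, a Golgi Rab that in flies also serves fusion with lysosomes, had a summit in its 5′ UTR, 97 bp downstream of the TSS (2R 6696836). It was weaker than Rab1, with a signal of 81.8 (rank 2932), 61.3 in replicate 1 (rank 1884) and 41.4 in replicate 3 (rank 2857). Rab6, which acts within and out of the Golgi, had a summit 22 bp upstream of the TSS (2L 12109138). Its signal was 100.2 (rank 2059), with 44.0 in replicate 1 (rank 3419) and 50.8 in replicate 3 (rank 1830).

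Rab30, another Golgi Rab, had the strongest peak of the ER and Golgi genes. Its summit lay 23 bp upstream of the TSS (2L 7032629) with a signal of 180.0 (rank 618), 123 in replicate 1 (rank 411) and 57.1 in replicate 3 (rank 1463). Among all Rab peaks this one ranked highest in replicate 1. A second peak lay 895 bp upstream (signal 88.4, rank 2567), with 44.4 in replicate 1 and 43.8 in replicate 3, and its nearest TSS was that of the neighbour Caper at 780 bp. Rab19 had the weakest of the Rab peaks, in an intron 329 bp downstream of a TSS (3L 8297498). Its signal was 72.7 (rank 3611), with 28.3 in replicate 1 (rank 6752) and 40.8 in replicate 3 (rank 2949). Rab18, known for its place on the ER and on lipid droplets, fell just outside the IDR list. Its strongest pooled region had a signal of 69.1 (rank 3934), against a lowest nuclear IDR signal of 70.6, with 32.3 in replicate 1 and 42.7 in replicate 3.

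Both early endosome genes had an IDR peak of middle rank. Rab5 controls fusion of early endosomes, and its summit lay on an annotated TSS (2L 2365273). The signal was 99.5 (rank 2090), with 67.8 in replicate 1 (rank 1561) and 37.3 in replicate 3 (rank 3508). Rab5 has 6 annotated TSSs and held 8 regions of the pooled list, of which 1 was on the IDR list. Rab21, which acts at early endosomes, had a summit 66 bp upstream of its TSS (X 23013475) with a signal of 95.5 (rank 2236), 56.5 in replicate 1 (rank 2176) and 35.4 in replicate 3 (rank 3893). That summit was nearer to the start of the neighbouring gene Coa7, at 20 bp, so the peak cannot be assigned to Rab21 alone.

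All 4 recycling genes had IDR summits, and Rab11 had the most of any member. Rab11, the Rab of recycling endosomes, had 3 peaks. The strongest lay 12 bp upstream of the TSS (3R 21111396) with a signal of 150.0 (rank 921), 82.0 in replicate 1 (rank 1063) and 73.4 in replicate 3 (rank 839). The other 2 lay in an intron, 1476 and 1702 bp downstream of the TSS, with signals of 113 (rank 1605) and 77.7 (rank 3207). Their regions overlapped each other and matched the same region in each replicate list (63.1 in replicate 1 and 53.7 in replicate 3), so they may not be separate sites. Rab14, which serves traffic between Golgi and endosomes, had a summit in its 5′ UTR 239 bp downstream of a TSS (2L 14355384). Its signal was 116 (rank 1535), with 63.7 in replicate 1 (rank 1758) and 50.4 in replicate 3 (rank 1872), much the same rank in both. Rab35, which recycles cargo to the plasma membrane, had a summit 42 bp upstream of the TSS (X 20159914), with a signal of 93.6 (rank 2316), 56.1 in replicate 1 (rank 2197) and 37.0 in replicate 3 (rank 3555). Rab4, of fast recycling, had a weak peak that differed most in rank between the replicates. Its signal was 75.6 (rank 3361), with 26.3 in replicate 1 (rank 7531) and 57.8 in replicate 3 (rank 1425). The summit lay 660 bp upstream of Rab4 (2R 17572802) and only 18 bp from the TSS of UQCR-6.4.

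Of the 8 genes placed with late endosomes and lysosomes, 2 had IDR summits. Rab7, which directs late endosomes to lysosomes, had a promoter peak 9 bp upstream of a TSS (3R 23992999) with a signal of 105 (rank 1860), 66.7 in replicate 1 (rank 1624) and 41.1 in replicate 3 (rank 2908). A second Rab7 peak in an intron, 103 bp upstream of another annotated TSS (3R 23993630), had nearly the same signal of 100.2 (rank 2053), with 57.1 in replicate 1 (rank 2150) and 47.9 in replicate 3 (rank 2094). Rab39 had a summit 393 bp upstream of its TSS (X 7734530), 92 bp from the TSS of Pdp. The Rab39 signal was 111 (rank 1663), with 83.0 in replicate 1 (rank 1028) and 32.9 in replicate 3 (rank 4431), so it stood higher in replicate 1. Rab9, of transport from late endosomes to the Golgi, was in the pooled list alone with a signal of 48.5 (rank 6760), 19.6 in replicate 1 and 26.2 in replicate 3. The remaining 5 of the 8 are short single-exon genes on X that carry Rab9 symbols, and none had an assigned region in any list.

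Among the 5 secretion genes, Rab8 and Rab10 had IDR summits. Rab8, which carries cargo from the Golgi to the plasma membrane, had the strongest peak of all members, 20 bp upstream of a TSS (3L 19871098). Its signal was 187 (rank 566), with 107 in replicate 1 (rank 586) and 80.3 in replicate 3 (rank 665), nearly equal ranks. Rab10, which in fly epithelia directs basement membrane secretion, had a summit in an intron 521 bp downstream of its TSS (X 20251859), and a weak signal of 72.8 (rank 3607), with 30.9 in replicate 1 (rank 5929) and 37.4 in replicate 3 (rank 3473). The other secretion genes, Rab26, Rab3 and Rab27, had no IDR summit. Rab26 reached 40.7 in the pooled list (rank 8682), with 29.4 in replicate 1 and 20.4 in replicate 3. Rab3, the Rab of synaptic vesicles, was near the foot of the pooled list at 16.5 (rank 28843), with 13.1 in replicate 1 and no region in replicate 3. Rab27, of secretory granules, had no pooled region and was found only in replicate 1 (33.7, rank 5183).

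Rab23, a gene of planar cell polarity in flies, had a summit 138 bp upstream of its TSS (3R 5685572), with a signal of 78.9 (rank 3110), 29.3 in replicate 1 (rank 6413) and 42.6 in replicate 3 (rank 2679). The same summit lay 283 bp from a TSS of plx, which encodes a protein with the domain of Rab GTPase activating proteins. Rab32, which in flies serves pigment granules, was in the pooled list alone at 57.6 (rank 5236), with 29.4 in replicate 1 and 27.9 in replicate 3. Of the 6 genes without a placed step, 2 had IDR summits. RabX1 had the second strongest signal of the members, 182 (rank 592), with 88.7 in replicate 1 (rank 896) and 90.6 in replicate 3 (rank 478). This summit lay in an intron 987 bp downstream of the TSS (2R 23522626), so it was near the limit used for promoters. Rab40 had a summit 87 bp upstream of a TSS (X 12463199), with a signal of 82.8 (rank 2857), 52.2 in replicate 1 (rank 2523) and 33.9 in replicate 3 (rank 4232).

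Of the 3 Rab3 regulators, Rab3GAP1 alone had an IDR summit. It encodes a subunit of the complex that switches Rab3 off, and its summit lay 69 bp upstream of the TSS. The signal was 159 (rank 803), with 99.3 in replicate 1 (rank 710), but no region of replicate 3 overlapped it. On the reproducible list, this Rab peak alone was matched by a region in 1 replicate only. Rab3-GEF, which loads Rab3, was in the pooled list alone at 43.1 (rank 7980), where replicate 1 had 16.6 and replicate 3 had no overlapping region. Rab3-GAP had no pooled region and was found only in replicate 3 (35.2, rank 3925).

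**Figure D2:**
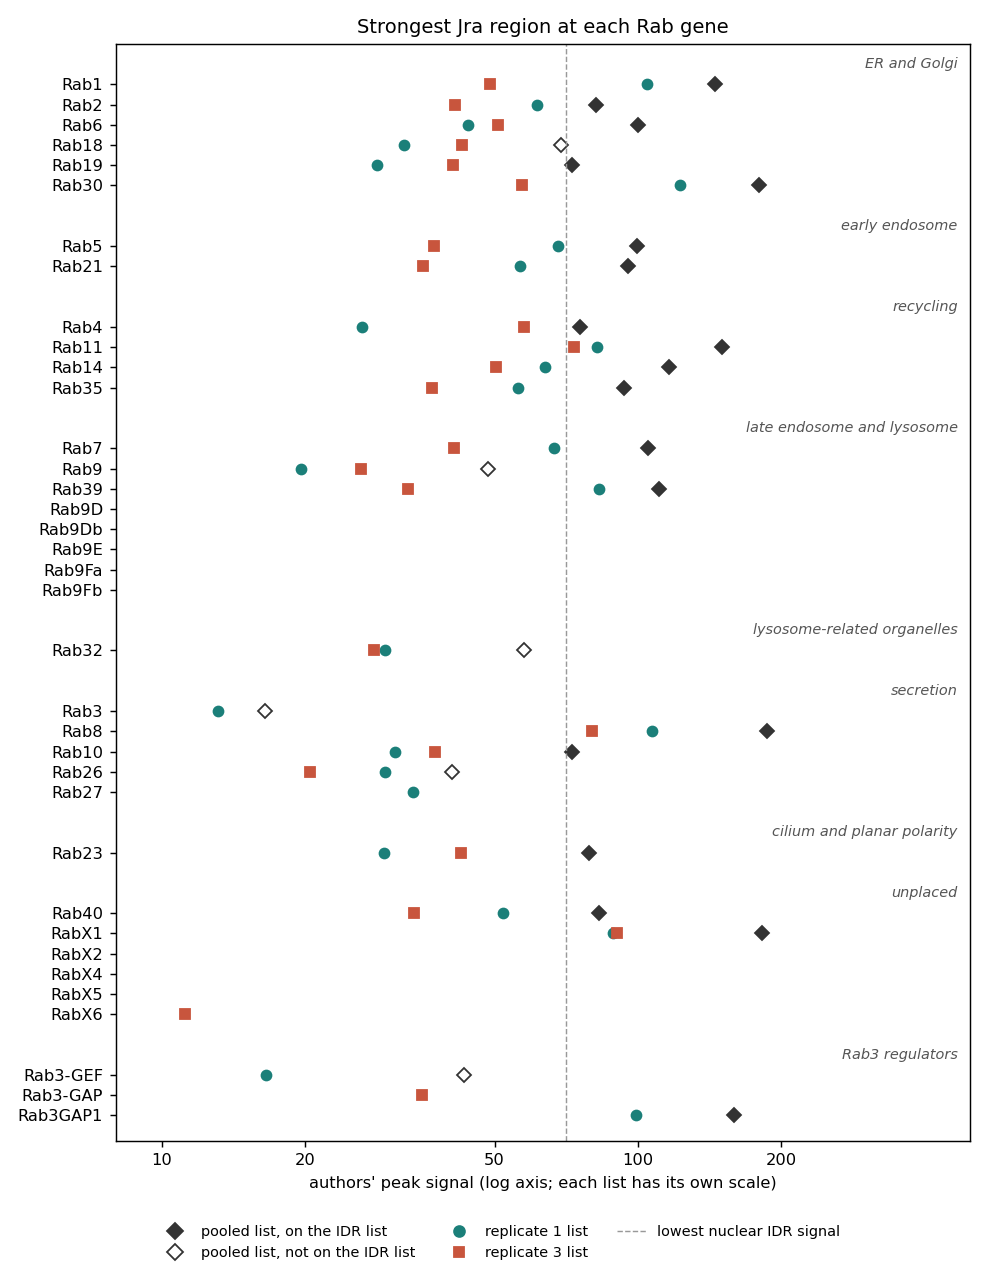
Signal of the strongest region at each of the 36 Rab genes (horizontal log axis, the authors' values), in the pooled list (diamonds, filled where the region is on the IDR list) and in the replicate lists (circles for replicate 1, squares for replicate 3) where a replicate region overlaps it, or the gene's strongest replicate region where the pooled list has none. The dashed line is the lowest nuclear IDR signal (70.6), with Rab18 just left of it at 69.1 and Rab8 farthest to the right at 187.

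By step, IDR summits covered 5 of 6 ER and Golgi genes, 2 of 2 early endosome genes and 4 of 4 recycling genes. They covered 2 of 8 late endosome and lysosome genes, 0 of 1 for lysosome-related organelles, 2 of 5 secretion genes, 1 of 1 for planar polarity, 2 of 6 unplaced genes and 1 of 3 Rab3 regulators. Over all protein-coding genes the share was 22.5%. Of the 8 late endosome and lysosome genes, 5 are the single-exon copies on X that carry Rab9 symbols, and none of these had a summit. The low count of this step thus depends on placing the copies in it. The groups are small, and differences between the steps were not tested.

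**Figure D3:**
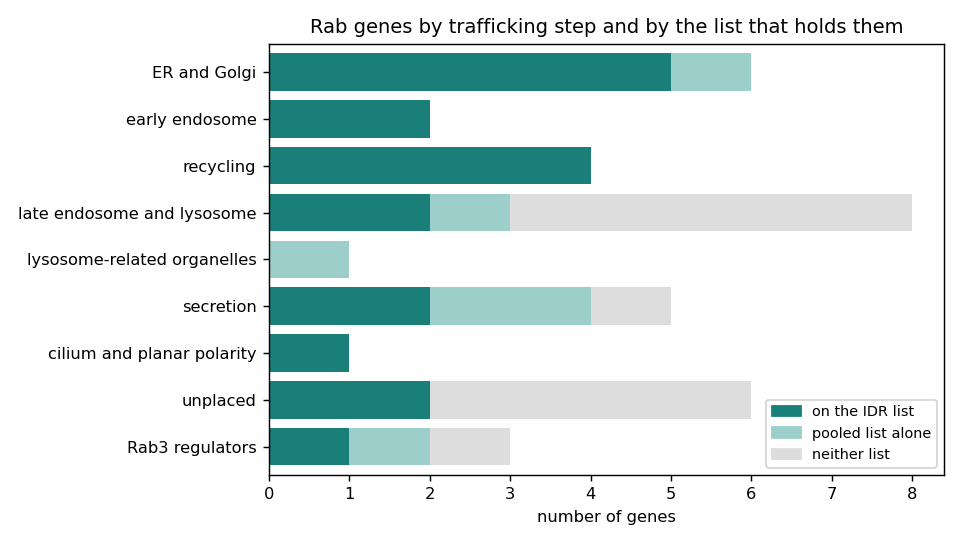
Number of Rab genes (horizontal axis) in each trafficking step, split by whether an IDR summit, a summit of the pooled list alone or neither lay at the gene. The ER and Golgi, early endosome and recycling bars hold no gene outside both lists, while 5 of the 8 late endosome and lysosome genes are outside both. These 5 are the single-exon genes on X that carry Rab9 symbols.

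A total of 11 members had no assigned summit in the pooled list, and 8 of these had none in either replicate list: Rab9D, Rab9Db, Rab9E, Rab9Fa, Rab9Fb, RabX2, RabX4 and RabX5. No region reached 7 of the 8 genes or the 1000 bp around their starts. The exception was RabX5, where an IDR region (signal 111, rank 1668) overlapped the end of the gene with its summit 159 bp outside it. That region had 82.9 in replicate 1 (rank 1034) and none in replicate 3. RabX6 had a single weak region in replicate 3 (11.2, rank 22505). The 6 single-exon Rab genes (the 5 Rab9 copies and RabX2) are all among the 8, and single-exon genes with an IDR summit made up 7.36% of their kind (133 of 1806). Copies of this sort share sequence, which limits unique placement of reads. Of the 50-base words in each gene and the 1000 bp around its starts, 45.4% occurred elsewhere on the chromosome arms for Rab9D, 46.6% for Rab9Db, 43.8% for Rab9E and 49.4% for Rab9Fa. The share was 10.04% for RabX2, and only 0.359% for Rab9Fb, 0.302% for Rab10 and 0% for every other member. Whether reads with several matches were kept is not given in the sources used here, and the part of repeated sequence in the empty Rab9 genes was not tested. Among the 8 genes, Rab9Fb, RabX4 and RabX5 had sequence that was unique or nearly so by this measure.

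The replicates held most Rab peaks, with different ranks for some. Of the 23 peaks, 22 overlapped a region of both replicate lists, against 99.0% of all nuclear IDR peaks (3765 of 3803). The median rank of the matching region was 1791 in replicate 1 (23 peaks) and 2300 in replicate 3 (22 peaks). A stricter reading asks for a place among the 3803 strongest regions of each replicate, which 15 of the 23 peaks had (65.2%), against 68.7% of all nuclear IDR peaks (2614). A further 4 had it in replicate 1 alone (Rab21, Rab39, Rab40 and Rab3GAP1) and 4 in replicate 3 alone (Rab19, Rab4, Rab10 and Rab23). By gene, 11 Rab genes had a peak among the strongest of both. These were Rab1, Rab2, Rab6, Rab30, Rab5, Rab11, Rab14, Rab35, Rab7, Rab8 and RabX1.

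**Figure D4:**
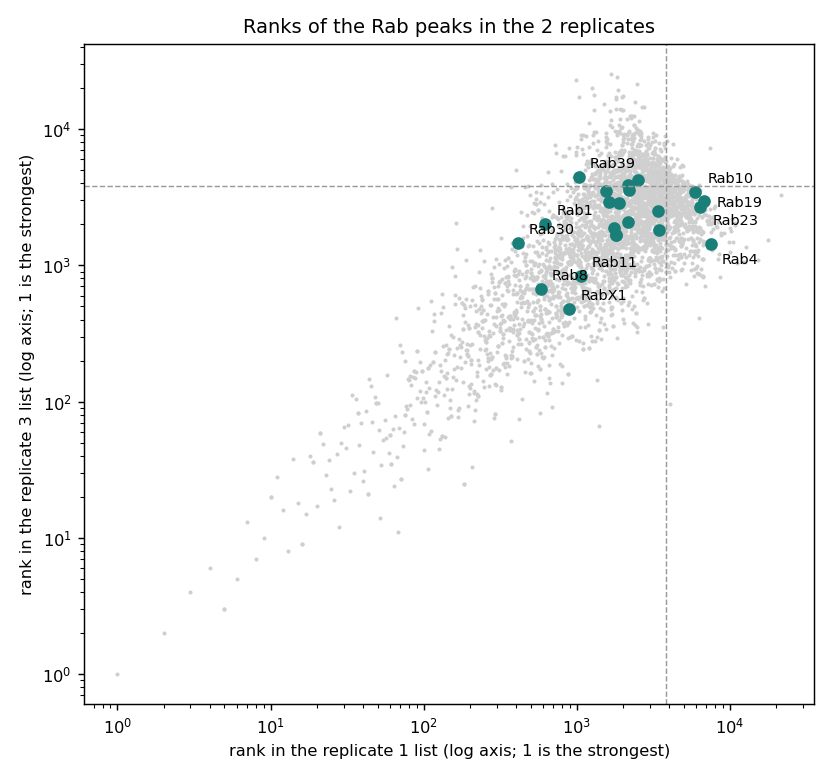
Rank of the matching region in replicate 1 (horizontal log axis) and in replicate 3 (vertical log axis), where 1 is the strongest, for the 22 Rab peaks found in both (large points) and all nuclear IDR peaks found in both (small grey points). Dashed lines mark rank 3803. Rab8, RabX1, Rab11 and Rab30 lie low on both axes. Rab4 lies right of the vertical line (rank 7531) and low on the other axis (rank 1425).

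Exact AP-1 letters lay within 50 bp of the summit at 6 of the 23 Rab peaks (26.1%, Wilson 95% interval 12.5 to 46.5%), against 4.08% of all nuclear IDR peaks (155 of 3803). The 6 were at 5 genes: Rab5, Rab6, Rab7, Rab19 and, with 2 overlapping regions, Rab11. The share and its interval count these 2 regions as separate peaks, although they may not be separate sites. At promoters the counts were 4 of 21 Rab peaks (19.0%) and 83 of 2437 IDR peaks (3.41%). Promoter here means a summit within 1000 bp of a TSS, so the 4 include the intron summits of Rab7 and Rab19. In the windows printed above, the AP-1 letters were centred 29 bp from the summit at Rab6, 14 bp at Rab19, 16 bp at Rab5, 35 bp at Rab7, and 32 and 35 bp at the Rab11 intron peaks. Within 25 bp of the summit the count was 2 (2.34% of all nuclear IDR peaks), and within 100 bp it was 6 (5.89%). At Rab5 and Rab6 the AP-1 letters were in the 5′ UTR, 16 and 7 bp downstream of a TSS. At Rab7, Rab19 and Rab11 they were in introns.

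DRE letters lay within 50 bp of the summit at 5 of the 23 peaks (21.7%, 9.66 to 41.9%), against 3.23% of all nuclear IDR peaks (123). The 5 were at the promoters of Rab6, Rab7, Rab8, Rab30 and Rab35, out of 21 promoter peaks of Rab genes (23.8%), against 4.97% of IDR peaks at promoters (121 of 2437). The centre of the DRE was 5 bp from the summit at Rab7 and at Rab8, 21 bp at Rab30, 27 bp at Rab6 and 33 bp at Rab35. Counted anywhere in the region, 7 Rab peaks held a DRE, with Rab2 and Rab40 added, against 7.97% of nuclear IDR peaks (303). Each of the 7 had a DRE just upstream of a TSS, at 9 bp (Rab35), 13 bp (Rab7), 14 bp (Rab40), 15 bp (Rab8), 44 bp (Rab30), 48 bp (Rab2) and 49 bp (Rab6), and the Rab35 region held another at 167 bp. The AP-1 count over whole regions stayed at 6 Rab peaks, against 8.60% (327).

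The Rab6 window held both kinds of letters, a DRE 49 bp upstream of the TSS and AP-1 letters 7 bp downstream, with the summit between them. Of the 3803 nuclear IDR peaks, 4 (0.105%) held both within 50 bp of the summit. In all, 8 Rab genes had AP-1 or DRE letters near a summit: Rab5, Rab6, Rab7, Rab8, Rab11, Rab19, Rab30 and Rab35. The strongest peaks without either were at RabX1, Rab3GAP1, Rab11 (promoter) and Rab1. The other words searched were TGACGTCA (CRE), found at 0 of 23 Rab peaks (Wilson upper bound 14.3%) and 0.421% of all, CACGTG (E box), also at 0 of 23 (14.3%) and 0.841%, and GAGAGAG, at 1 (peak 3 of Rab11) and 3.34%. All were searched on both strands, and none of the 5 words contains another. An exact word is a description of the letters, not a measured binding site.

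The Rab genes also held AP-1 and DRE letters away from the peaks. Over the 36 genes and 1000 bp around their TSSs there were 20 AP-1 sites in 16 genes (44.4%), against 32.2% of all protein-coding genes with a site in the same span. Of the 20 sites, 6 lay near an IDR summit and 10 lay in a region of the pooled list. There were 16 DRE sites in 12 genes (33.3%), against 21.0% of all protein-coding genes (2926). Of the 16 sites, 5 lay near an IDR summit and 9 in a region of the pooled list. The searched span had a median of 3882 bp at Rab genes and 3167 bp at all protein-coding genes, and its part in these shares was not tested. The 19 Rab genes with an IDR summit held 17 of the AP-1 and 12 of the DRE sites. The same split was not made over all protein-coding genes, so it has no background share. The span of the 19 had a median of 4317 bp and a total of 91.7 kb. At the 17 genes without a summit these were 2435 bp and 96.3 kb, and the part of span in the split was not tested. The 4 DRE sites at genes without an IDR summit were at Rab27 (67 bp upstream of the TSS), RabX6 (45 bp upstream) and, in introns, 2 at Rab3-GEF, and none was in a pooled region. Rab27 and RabX6 thus had promoter DREs much like those of Rab2, Rab6 and Rab30 in distance, but no pooled region. Each of these DREs lay inside a region of a single replicate list, replicate 1 for Rab27 (signal 33.7) and replicate 3 for RabX6 (11.2). Rab14 also had a DRE 77 bp upstream of a TSS that no pooled region covered, and its peak lay farther downstream. Rab19 had DREs 16 and 43 bp upstream of annotated TSSs. The first lay in a pooled region of signal 34.2 (rank 10984), away from the IDR summit, and the second lay in no pooled region.

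**Figure D5:**
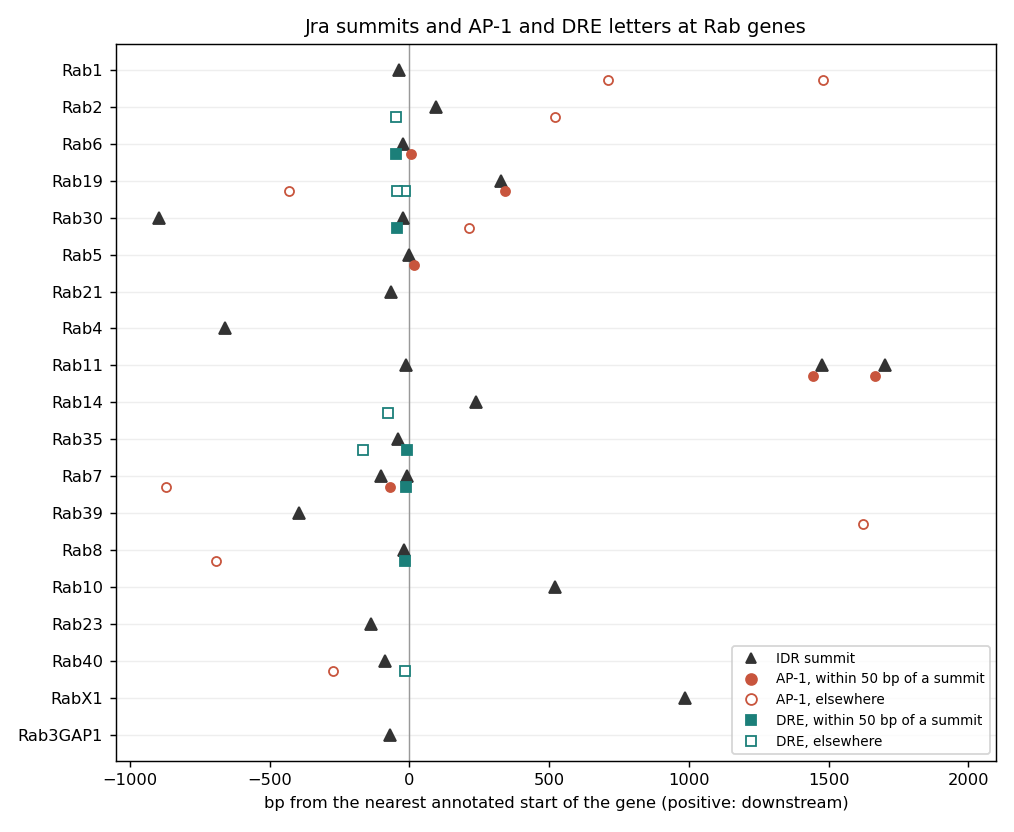
Position of IDR summits (triangles), AP-1 letters (circles) and DRE letters (squares) along the 19 Rab genes with an IDR summit, in bp from the nearest annotated start of the gene (horizontal axis, positive downstream; the span from 1000 bp upstream is shown). Filled symbols lie within 50 bp of a summit; filled DREs stand just left of 0 at Rab6, Rab30, Rab35, Rab7 and Rab8, and filled AP-1 letters at Rab6, Rab19, Rab5, Rab11 and Rab7.

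Among genes whose products act on or through Rabs, 26 of 66 had an IDR summit in the body or within 1000 bp of a TSS (39.4%, 28.5 to 51.5%), against 22.5% of all protein-coding genes. At promoters the count was 23, against 20.4%, and 40 had a pooled region (60.6%), against 52.7%. By listed role, the counts were 3 of 4 genes of Rab recycling and prenylation and 7 of 12 GTPase activating protein genes. They were 6 of 19 for exchange factor genes and 10 of 31 for effector genes. Gdi, the GDP dissociation inhibitor gene, had none, nor had Rabex-5, an exchange factor gene for Rab5. For 11 of the 26 genes the strongest peak lay nearer to a TSS of another gene, so it cannot be assigned to the partner gene alone.

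The 8 highest signals in this list lay at promoters and covered partners of Rab5, Rab7 and Rab11. Rbsn-5, a Rab5 effector gene, had a signal of 304 (rank 148), with 183 in replicate 1 and 127 in replicate 3, higher than any Rab gene. Rep, the Rab escort protein gene, had 240.0 (rank 286), with 129 in replicate 1 and 110.2 in replicate 3. Both subunits of the exchange factor for Rab7 were among the 8. Ccz1 had 193 (rank 515), with 117 in replicate 1 and 65.6 in replicate 3, and a summit 7 bp from its TSS. Mon1 had 174 (rank 664), with 85.5 in replicate 1 and 90.6 in replicate 3, and a summit 26 bp from its TSS. Their target, Rab7, had 105.

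The exchange factor gene spri, whose product acts on Rab5, had 175 (rank 662), with 99.7 in replicate 1 and 83.7 in replicate 3. Rilpl had 166 (rank 738), with 105 in replicate 1 and 65.2 in replicate 3. Rip11, a Rab11 effector gene, had 164 (rank 758), with 74.0 in replicate 1 and 93.8 in replicate 3. These 3 ranked below Rab8 and above Rab11. MICAL-like had 149 (rank 931), with 111 in replicate 1 and 41.6 in replicate 3, and was the only gene of the 66 with AP-1 or DRE letters within 50 bp of a summit, holding both. Among Rab genes 8 of the 19 with an IDR summit had such letters, against 1 of the 26 partner genes with one, a difference that was not tested. The same count was not made over all protein-coding genes with an IDR summit, so neither count has a background share by gene. By peak, 4.08% of all nuclear IDR peaks held AP-1 letters and 3.23% held a DRE. TBC1D23, listed here with the GTPase activating protein genes, had a signal of 71.0 (rank 3762) and no overlapping region in replicate 3.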

How the data were processed

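ChIP-seq of Jra was deposited as peak lists on the dm6 and dm3 builds, and the dm6 lists were used. Per the deposited text files, each replicate list came from that replicate's alignments and 1 further file, the pooled list from both alignments and that file, and the IDR list from these lists. The aligner, the peak-calling tool and the IDR cutoff were not given in the sources used here. The authors deposited for every region a signal value from their caller and a −log10 q-value, which was not used. Of 3827 IDR peaks, 3803 on the chromosome arms were kept.

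Genes came from Ensembl release 115 and sequence from Release 6. A summit was given to a gene when it lay in the body or within 1000 bp of a TSS. A replicate value is the highest signal of a replicate region that overlaps the peak by at least 1 bp. Motifs were searched as exact words within 50 bp of summits, and 50-base words were compared with the sequence of the chromosome arms. Of 76 listed regulator and effector symbols, 66 matched a gene. Every member is named, and of the regulators and effectors the 8 with the highest signal, beside Gdi, Rabex-5, plx and TBC1D23, which were chosen after their values were seen. The members, lists and steps were chosen with earlier results of these data known. Windows were chosen for peaks with AP-1 or DRE letters and for the 4 strongest members; those on 2R and 1 other of the chosen windows are not reported here. No test was made. The assignment of summits was tested on simulated data. Python 3.11.15, pandas 2.3.3, numpy 2.4.6, scipy 1.17.1 and matplotlib 3.10.9 were used. Alternatives changed the list, the distance, the replicate and the motif window.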

Additional observations from a re-analysis of the deposited data

How the results depend on the processing

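The 19 signals of the strongest Rab peaks were the same in the pooled list, since the IDR list is a part of it. With the 1901 strongest IDR peaks alone, 9 Rab genes remained (9 also at promoters), with 13 regulators and effectors, against 13.8% of all protein-coding genes. With the top 3803 regions of 1 replicate in place of the IDR list, the count was 15 to 16 Rab genes (15 to 16 at promoters), 24 to 29 regulators and effectors, and 22.8 to 23.3% of all genes. Replicate 1 alone lost Rab19, Rab4, Rab10 and Rab23, and replicate 3 alone lost Rab21, Rab39, Rab40 and Rab3GAP1 and gained Rab18. Counting region overlap in place of the summit gave 20 Rab genes, with RabX5 added, against 23.8% of all genes. A distance of 500 bp gave 18 Rab genes, without Rab4, against 21.1%, and 250 bp gave 17, without Rab4 and Rab39, against 19.4%. When the nearest TSS had to be that of the Rab gene, 16 genes remained, against 16.1% of all genes. Within 25 bp of the summit, 2 Rab peaks held AP-1 letters and 3 held a DRE. The restriction to 33 GTPase genes (18), leaving out the Rab9 copies on X (19) and the search of whole regions (6 with AP-1, 7 with a DRE) were chosen after seeing the data. Unknown depth and unanalysed controls limit every count, and a gene without a region is not shown to be unbound. No paired analysis was possible because there was 1 group.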
